A study of Homo sapiens with 9 samples.

Results

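Chromosome 19 of the human genome holds most of the large clusters of zinc finger genes, and 219 of them are described here in the astrocytoma line SW1783. A member is a protein-coding gene whose symbol is ZNF followed by a number, which GENCODE places on chromosome 19, and whose mean level in vehicle was at least 1 CPM, the usual unit of counts relative to the library total. Of 60675 genes in the deposited table, 249 met the name and position, and 219 also met the level. ZNF575 (1.03 CPM) and ZNF66 (1.04 CPM) were just inside that minimum, and ZNF460 (0.985 CPM) and ZNF610 (0.975 CPM) just outside. Among the 30 genes left out, 1 had no count in vehicle.

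SW1783 cells were grown with 10% fetal bovine serum in L-15 medium, and exposure lasted 24 h. The 3 vehicle libraries received DMSO alone, and 6 libraries received a 70% ethanol extract. Of these, 3 were of Poria Cocos, a fungus, and 3 of Atractylodis Rhizoma, a plant rhizome, at 20, 100 or 500 µg/mL with 1 library for each dose. The sample labels and the series' design text give different DMSO percentages for vehicle, and the treated libraries' own labels state none, so a difference in DMSO between the groups cannot be told apart from the extracts. All 9 libraries carry the same batch letter. The labels do not say whether replicates were separate cultures, so the p-values speak of the spread among these libraries alone, which may be technical. No dose of either extract was replicated. A set of 6 treated libraries was therefore compared with the 3 vehicle libraries, and slopes were fitted over the doses of each extract. In that comparison, differences between extracts and doses count as spread among the treated libraries.

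C2H2 zinc fingers are short protein modules in which 2 cysteines and 2 histidines hold a zinc ion, and arrays of them read DNA sequence. Many of these proteins start with a KRAB domain, which recruits the corepressor TRIM28 and, through it, the histone methyltransferase SETDB1 and HP1 proteins. Such KRAB zinc finger proteins are best known for silencing transposable elements, and their genes multiplied by tandem duplication, which is why they lie in clusters.

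The base composition of a finger array is written into the gene. The 4 stretches here are chosen examples from members whose levels differed between treated and vehicle cells. Base composition of finger units was not computed for the other members. Each is the first 28-residue finger unit of the longest coding sequence that the search found, read 5′ to 3′ on the coding strand from GENCODE 29 transcripts (GRCh38). Capitals mark the codons of the 2 cysteines and 2 histidines. ZNF404 and ZNF302 were higher in treated cells, and ZNF574 and ZNF787 lower.
ZNF404: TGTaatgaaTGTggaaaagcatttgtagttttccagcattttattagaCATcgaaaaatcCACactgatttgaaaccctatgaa
ZNF302: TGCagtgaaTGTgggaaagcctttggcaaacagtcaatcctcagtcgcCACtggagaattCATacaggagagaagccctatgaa
ZNF574: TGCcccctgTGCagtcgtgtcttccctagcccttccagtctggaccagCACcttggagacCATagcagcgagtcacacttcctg
ZNF787: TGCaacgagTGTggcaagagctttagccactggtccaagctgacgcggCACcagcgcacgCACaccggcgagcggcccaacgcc
All 4 are coding exon sequence. The ZNF404 unit (chr19:43873650-43873733, minus strand, exon 3 of 3) has 32.1% G and C, and the ZNF302 unit (chr19:34684644-34684727, plus strand, exon 7 of 7) has 47.6%. The ZNF574 unit (chr19:42079618-42079701, plus strand, exon 2 of 2) has 59.5%, and the ZNF787 unit (chr19:56088887-56088970, minus strand, exon 3 of 3) has 66.7%. The search fixed the spacing of the cysteines and histidines, so the capitals fall at the same places in each by design. The bases between them differ. Over the whole unit, ZNF302 and ZNF787 share 50 of 84 bases, and ZNF404 and ZNF574 share 23.

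As a set, the members were moderately expressed and low in GC content. Their vehicle level ran from 1.07 to 117 CPM (with the library totals adjusted by TMM factors here and in all that follows), with a median of 6.93. All 219 had counts in all 9 libraries and passed the filter on low counts. The median GC content of the longest coding transcript was 42.3%, against 48.5% over all 18356 genes tested and 60.4% over the 651 other coding genes of chromosome 19 at the same minimum level. The median number of finger motifs was 12 among the 218 members with a coding sequence. ZNF91, a repressor of SVA retrotransposons in primates, had the most (31), and in ZNF738 the motif was not found. A KRAB motif (phenylalanine, then serine or threonine, any 2 residues, glutamate and tryptophan) lay within the leading 200 residues of 164 members.

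Per length of transcript, vehicle levels ran from 0.345 to 33.2 CPM per kb with a median of 1.79. ZNF358 (33.2 CPM per kb) and ZNF146 (30.9), a protein made almost only of fingers, were the highest, before ZNF580 (23.1), ZNF787 (22.6) and ZNF428 (22.3). Among these 5 genes, 4 have GC contents between 61.3% and 70.3%, and ZNF146 has 41.4%. The lowest per length were ZNF792 (0.345), ZNF442 (0.393), ZNF491 (0.444), ZNF221 (0.449) and ZNF575 (0.467). The vehicle libraries agreed closely: the coefficient of variation of a member over them had a median of 5.17%.

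In the 6 treated libraries, more members rose than fell, and nearly all changes were small. In the edgeR test of treated against vehicle, 37 of 219 members were called higher (16.9%) and 16 lower (7.31%) at an adjusted p under 0.05, while 166 were not called. Together, 24.2% of members were called, against 25.3% of all genes tested. Over all genes tested, 12% were called higher and 13.3% lower. In edgeR the members' share was thus above this background on the higher side and below it on the lower. Over the 12188 coding genes at the same minimum level, members included, 15.1% were higher and 18.5% lower. The members' share was nearer to these genes on the higher side and further below them on the lower. DESeq2 called 30 members higher (13.7%) and 16 lower (7.31%), against 13.6% and 17.7% of the 14803 genes with an adjusted p. By DESeq2 the members were thus near the background on the higher side. In edgeR the median log2 change was 0.064 over members and 0.014 over all genes. For 143 members the change was above 0. The range of the change was -0.49 to 0.98, and 159 members changed by less than 0.2 in size. Only ZNF404 was called with a change of at least 1.5-fold. In CPM, 40 members had all treated libraries above all vehicle libraries (background 12.4%), and 15 had them all below (background 13.7%).

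The size of these counts rested in part on single libraries. The count called higher was 21 without vehicle replicate 1 (9.59% of members, against 7.06% of all genes in the same fit), 23 without vehicle replicate 2 (10.5% against 7.77%), 23 without vehicle replicate 3 (10.5% against 7.5%) and 24 without the Poria library at 100 µg/mL (11% against 10.1%). Fewer genes at large were called in these fits too. Scaled by library totals alone, 66 members were higher (30.1%) and 11 lower (5.02%), against 21.7% and 7.59% of all genes, whose split moved to the higher side as well. The libraries' counts on members made up 0.203% to 0.204% of all counts in vehicle and 0.206% to 0.226% in treated cells.

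ZNF404 (ENSG00000176222, chromosome 19, 43872363 to 43901385, minus strand) had the largest rise. Its level was 2.16, 2.32 and 2.18 CPM in the 3 vehicle libraries, 4.22, 4.28 and 4.62 at 20, 100 and 500 µg/mL of Poria, and 3.79, 4.32 and 5.01 at the same doses of Atractylodis. Every treated library lay above every vehicle library by a wide margin, already at the lowest dose of each extract. The log2 change was 0.98 ± 0.11 (SE, edgeR adjusted p = 7.9e-06), or 1.97-fold. ZNF404 has a KRAB motif and 14 fingers, and its transcript has 35.98% GC. Its expected counts were not whole numbers in 7 of 9 libraries and 1 annotated gene overlaps its exons on the same strand, and non-whole counts mark reads that RSEM divided, although no 100-base window of its transcript was found in another gene.

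ZNF302 (ENSG00000089335, 34677639 to 34686397, plus strand), a KRAB gene with 7 fingers, gave 11.5, 11.7 and 12.1 CPM in vehicle, 14.4, 16.5 and 17.6 with rising Poria dose, and 14.8, 16.4 and 16.8 with rising Atractylodis dose. The groups did not overlap, and the levels followed the dose order for each extract (log2 change 0.45 ± 0.07, edgeR adjusted p = 0.0001). ZNF83 (ENSG00000167766, 52594060 to 52690496, minus strand), with 14 fingers and no KRAB motif found, gave 25.2, 26.3 and 23.9 CPM in vehicle, 29.8, 33.8 and 35.9 with Poria and 29.02, 30.5 and 33.6 with Atractylodis. It too was higher in each treated library than in any vehicle library (0.36 ± 0.06, edgeR adjusted p = 0.00074).

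The other large rises were of weakly or moderately expressed KRAB genes for the most part. ZNF221 went from 1.14 ± 0.035 CPM in vehicle (SD, n = 3) to between 1.46 and 1.84 in treated cells, and ZNF415 from 1.65 ± 0.21 to between 2.08 and 2.67. For ZNF573 (1.48 ± 0.056 CPM), ZNF844 (5.03 ± 0.68), ZNF793 (9.95 ± 0.25), ZNF283 (5.02 ± 0.20) and ZNF780A (11.5 ± 0.20) the log2 changes were 0.38 to 0.44, and the groups did not overlap. ZNF625-ZNF20, a readthrough of neighbouring genes, was called higher at 0.48 ± 0.14 (edgeR adjusted p = 0.017), but its groups overlapped. Of its 100-base windows, 82.9% occur in ZNF20 and 96.1% in some other gene, so reads could be split between them, and ZNF20 itself was at -0.24 (edgeR adjusted p = 0.29). ZNF625-ZNF20 is reported as uncertain for that reason.

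The genes that fell were of another kind. ZNF574 (ENSG00000105732, 42068477 to 42081549, plus strand), with 18 fingers and no KRAB motif found, gave 23.9, 22.9 and 23.5 CPM in vehicle, 17.7, 16.8 and 15.98 with rising Poria dose, and 18.2, 15.9 and 15.5 with rising Atractylodis dose. No treated library reached the vehicle levels, and each extract's levels went down with each step of dose (log2 change -0.49 ± 0.06, edgeR adjusted p = 1.3e-05). ZNF787 (ENSG00000142409, 56087366 to 56121280, minus strand), with 7 fingers, gave 41.9, 45.01 and 43.4 CPM in vehicle, 35.9, 36.3 and 34.3 with Poria and 37.8, 37.1 and 32.7 with Atractylodis. Its groups did not overlap either (-0.28 ± 0.05, edgeR adjusted p = 0.00036).

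ZNF526 (ENSG00000167625, 42220271 to 42228201, plus strand), the neighbour of ZNF574 among the members, stood at 17.8 ± 1.04 CPM in vehicle and between 13.8 and 14.8 in treated cells (-0.33 ± 0.05, edgeR adjusted p = 0.00016). ZNF628 went from 12.8 ± 0.68 CPM to between 9.15 and 10.6, with a transcript GC content of 70.4%. The falls of ZNF414, ZNF579, ZNF324 and ZNF581 were between -0.27 and -0.30 in log2, without overlap of the groups. Each of these has a GC content of 58.8% or more. ZNF324 shares 29.4% of its 100-base windows with another gene and ZNF581 12.7%, and their counts are less certain for that reason.

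ZNF587B (45.4% GC) and ZNF814 (44.5% GC) were the exceptions among the 10 largest falls. ZNF587B went from 7.08 ± 0.29 CPM to between 4.87 and 5.77 (-0.39 ± 0.08, edgeR adjusted p = 0.0011), and ZNF814 from 6.82 ± 0.46 to between 5.13 and 6.28 (-0.27 ± 0.08, edgeR adjusted p = 0.021). Both are KRAB genes of the same run of neighbours at the end of the chromosome. They share 14.3% and 17.7% of their 100-base windows with other annotated genes, and their expected counts were not whole numbers in any library, which marks reads that RSEM divided between genes.

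**Figure D1:**
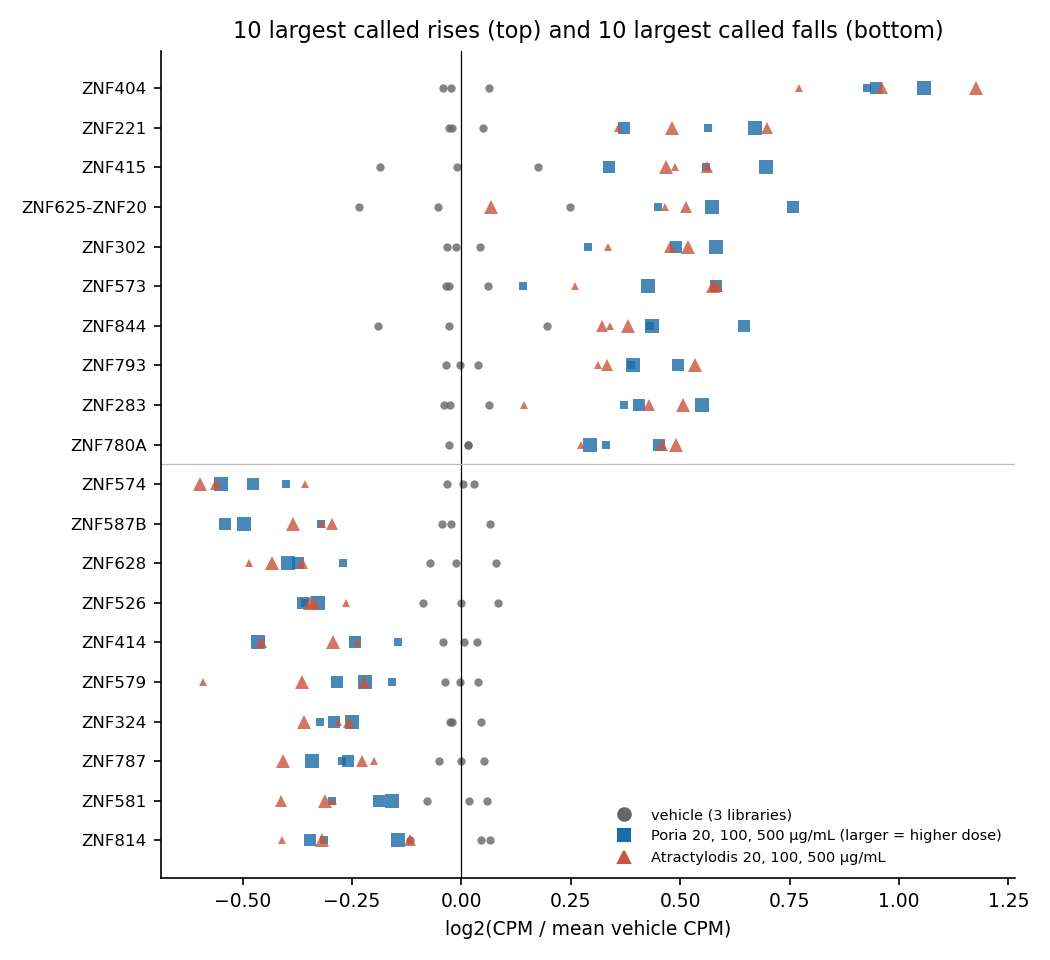
Level of the 10 members with the largest called rises and the 10 with the largest called falls, as log2 of CPM over the mean vehicle CPM (x axis), with 1 point per library: grey circles vehicle, blue squares Poria, red triangles Atractylodis, larger symbols for higher doses. ZNF404 stands apart with all treated libraries near or above 0.8, and apart from ZNF625-ZNF20 the treated points of each gene lie to one side of its vehicle points.

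The members' changes followed the GC content of their transcripts, as did those of genes at large. Among the 189 members under 50% GC, 37 were called higher and 4 lower (median log2 change 0.078). Among the 30 members at 50% or more, 0 were called higher and 12 lower (median -0.14). None of the 30 was higher at an unadjusted p under 0.05 in edgeR, and none was called higher by DESeq2. Over all genes tested, 17.1% of those under 50% GC were called higher and 5.58% lower, against 5.94% and 22.8% of those at 50% or more. The 50% limit was set after the GC values had been seen.

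Within the low GC range the members did not rise steadily as GC fell. Their median change was 0.018 at 45 to 50% GC (n = 32), 0.099 at 40 to 45% (n = 96) and 0.080 under 40% (n = 61). All tested genes had 0.012, 0.068 and 0.10 in these ranges. In the lowest range the median of the members thus lay below that of all genes, and in the middle one above it. Across genes, Spearman's rho between the change and GC content was -0.34 over the 219 members and -0.30 over the 18214 genes tested with a GC value; genes share libraries and are not independent replicates, so no p is given.

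**Figure D2:**
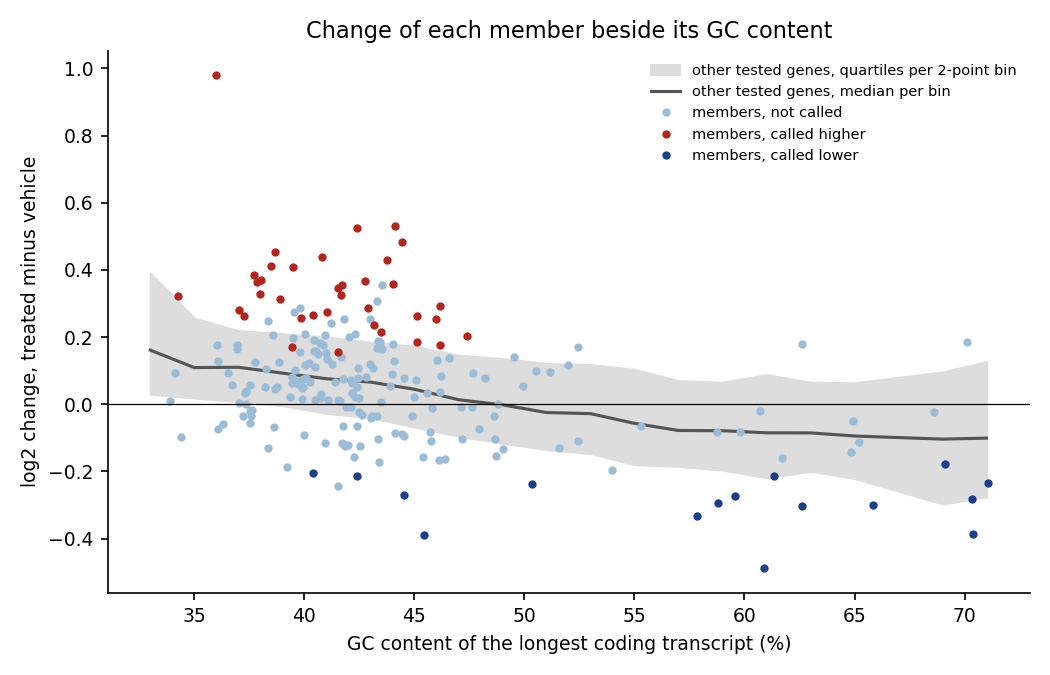
Log2 change between treated and vehicle cells (y axis) against GC content of the longest coding transcript in percent (x axis), with 1 point per member (red called higher, dark blue called lower, pale blue not called). The line and band give the median and quartiles of the other tested genes in bins of 2 percentage points, and all 37 members called higher lie under 50% GC.

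With offsets for GC content and transcript length in the fit, 20 members were called higher and 16 lower, and the median change was 0.0027. Over all genes the offsets left 9.77% called higher and 11.8% lower, and over the 12188 coding genes at the same minimum level 11.9% and 16.6%. Of the 37 members called higher without the offsets, 19 were called in both fits, and of the 16 called lower, 11. ZNF404 was at 0.88 (edgeR adjusted p = 2e-05) and ZNF302 at 0.37 (edgeR adjusted p = 0.00049) with the offsets, and ZNF574 at -0.40 (edgeR adjusted p = 2.9e-05). By contrast, ZNF91 (0.28 without, 0.17 with, edgeR adjusted p = 0.052), ZNF573 (0.44 and 0.36, edgeR adjusted p = 0.057), ZNF579 (-0.30 and -0.19, edgeR adjusted p = 0.13) and ZNF358 (-0.18 and -0.072, edgeR adjusted p = 0.24) lost their call.

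The 5 members called lower only with the offsets were ZNF791, ZNF100, ZNF529, ZNF776 and ZNF8, and ZNF497 was called higher only there; they are named because of this result. ZNF529 went from -0.056 (edgeR adjusted p = 0.50) to -0.16 (edgeR adjusted p = 0.043), and ZNF497, with 62.6% GC, from 0.18 (edgeR adjusted p = 0.15) to 0.27 (edgeR adjusted p = 0.028). ZNF121 (40.4% GC) and ZNF264 (42.4% GC), both called lower, moved further from 0, to -0.30 (edgeR adjusted p = 0.0014 and 0.00051). ZNF264, ZNF121, ZNF587B and ZNF814 are the 4 members under 50% GC that were called lower, and each was called lower with the offsets as well.

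**Figure D3:**
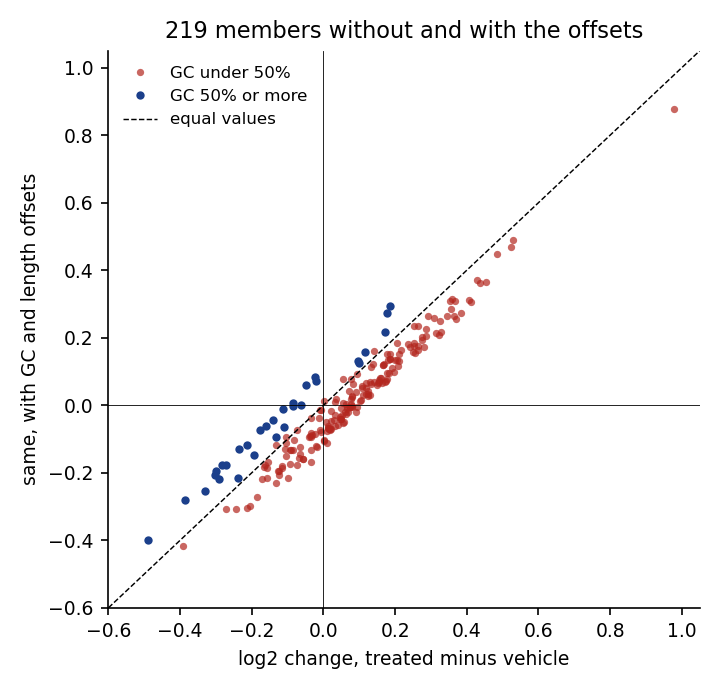
Log2 change of each of the 219 members without (x axis) and with (y axis) offsets for GC content and transcript length, red for members under 50% GC and blue for the rest. Most low GC members lie below the dashed line of equal values and the high GC members above it, and ZNF404 keeps a change of 0.88.

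Library by library, the members' shift from vehicle appeared in 5 of the 6 treated libraries. The median log2 shift over the 219 members was 0.063, 0.065 and 0.087 at 20, 100 and 500 µg/mL of Poria, and 0.074 and 0.076 at 100 and 500 µg/mL of Atractylodis. At 20 µg/mL of Atractylodis it was -0.0027. The vehicle libraries, each set against the other 2, lay between -0.0080 and 0.0055, so this lowest Atractylodis dose was within their range. All tested genes had medians between 0.0063 and 0.012 in the treated libraries. With the GC and length offsets the members' medians were smaller, at 0.0011, 0.014 and 0.048 with rising Poria dose and -0.019, 0.012 and 0.019 with rising Atractylodis dose, and the lowest Poria dose then lay within the vehicle range of -0.0017 to 0.0053.

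The Atractylodis library at 20 µg/mL also carried less of the relation with GC content over all genes: rho was -0.080 there and -0.26 to -0.34 in the other treated libraries. Over members, rho was -0.29 in that library and -0.23 to -0.41 in the others. Members under 50% GC shifted by a median of 0.014 in it, against 0.077 to 0.12 in the other treated libraries. Members at 50% or more shifted by -0.073, against -0.10 to -0.20. Without this library, 48 members were called higher (21.9%) and 17 lower (7.76%), against 13.9% and 15.5% of all genes.

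**Figure D4:**
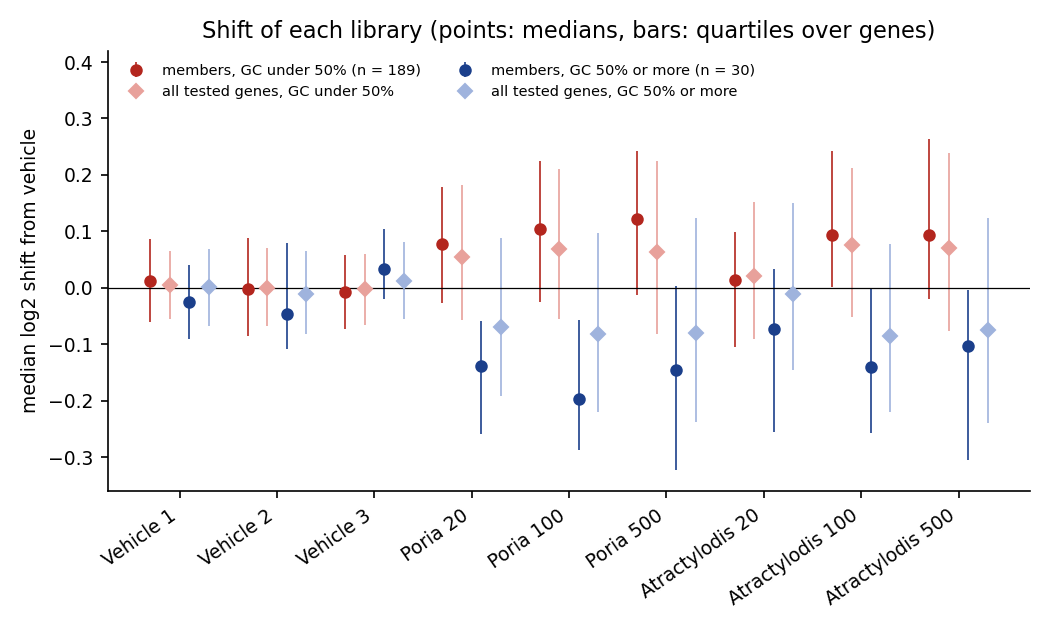
Median log2 shift from vehicle (y axis) in each of the 9 libraries (x axis, doses in µg/mL) for members (circles) and all tested genes (diamonds), under 50% GC in red and at 50% or more in blue, with bars from the lower to the upper quartile over genes. Low GC members lie above 0 and high GC members below it in the treated libraries, least so for low GC members in Atractylodis 20.

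Other values moved with the treatment as well. Of 7 long nuclear RNAs, taken as a sign of RNA handling, 4 were called higher and 0 lower, and their sum was 2401 to 2467 CPM in vehicle and 3101 to 3470 in treated cells. Mitochondrial transcripts were 5.93% to 6.46% of counts in vehicle and 5.38% to 6.97% in treated cells. The part of either in the members' shift was not tested. Library totals were 40269665 to 48905536 counts. Of the astrocyte markers, GFAP, S100B, AQP4 and ALDH1L1 were at or near 0 (GFAP at most 0.159 CPM), while SLC1A3, SOX9, VIM and CD44 were present. The 10 astrocyte markers summed to 8602 to 9001 CPM in vehicle and 7412 to 8122 CPM in treated cells, without overlap, and most of that sum was VIM. VIM (log2 change -0.22, edgeR adjusted p = 0.0021) and SOX9 (-0.30, edgeR adjusted p = 0.0015) fell, and SLC1A3 rose (0.28, edgeR adjusted p = 0.00036). The part of these in the members' shift was not tested either. Markers of epithelial, endothelial and hepatocyte cells summed to at most 1.25 CPM each in any library. Neuron markers summed to 56.3 to 74.5 CPM and myeloid markers to 10.8 to 14.96 CPM, and for both the vehicle libraries lay within the range of the treated ones. In bulk samples, fewer cells of a type and less RNA per cell cannot be told apart.

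Doses were described by a slope per extract, the log2 change per 5-fold step from vehicle through 20 and 100 to 500 µg/mL, from the 9 libraries. For Poria, 31 members had a rising slope and 12 a falling one (background 9.17% and 11.6%), or 14.2% and 5.48% of members. For Atractylodis the counts were 28 and 10 (background 8.49% and 10.5%), or 12.8% and 4.57%. With the GC and length offsets, 17 rose and 6 fell for Poria (background 6.81% and 8.35%), and 13 and 4 for Atractylodis (background 6.25% and 8.4%). Over the 12188 coding genes at the same minimum level, without offsets, 11.6% rose and 16.5% fell for Poria, and 11.5% and 15% for Atractylodis. DESeq2, without offsets, called 27 members rising and 11 falling for Poria (12.3% and 5.02%, against 10.6% and 16.3% of all genes). For Atractylodis it called 20 and 10 (9.13% and 4.57%, against 11.2% and 17.1%). The median edgeR slope over members, without offsets, was 0.034 for Poria and 0.025 for Atractylodis. Both extracts were set against the same vehicle libraries. In edgeR the Atractylodis counts were 6 and 3 without its library at 500 µg/mL and 15 and 3 without that at 100 µg/mL. They were 15 and 5 without vehicle replicate 2, and 17 and 3 without vehicle replicate 3. Without vehicle replicate 1, 4 were called lower for Atractylodis. For Poria, 7 were called lower without vehicle replicate 1 or 3, in place of 12. Calls over all genes fell in these fits as well: for Atractylodis 2.21% rose and 3.46% fell without its library at 500 µg/mL, 4.85% and 6.71% without that at 100 µg/mL, and 4.82% to 5% and 6.71% to 7.4% without a vehicle library, and for Poria 8.07% and 8.58% fell without vehicle replicate 1 or 3.

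ZNF83 had the smallest p of the Poria slopes, at 0.18 ± 0.02 (edgeR adjusted p = 7.6e-05), and 0.13 ± 0.02 for Atractylodis (edgeR adjusted p = 0.00087). ZNF302 rose by 0.19 ± 0.03 per step of Poria (edgeR adjusted p = 0.00025) and by 0.18 ± 0.03 per step of Atractylodis (edgeR adjusted p = 0.00069). ZNF574 had slopes of -0.19 ± 0.03 and -0.21 ± 0.03 (edgeR adjusted p = 0.00049 and 0.00046). The slopes of the 2 extracts share the vehicle libraries, and these genes were taken for their small p. ZNF787 fell by 0.12 per step under each (edgeR adjusted p = 0.0019 and 0.0022).

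When only the treated libraries set the slope, 2 members rose and 1 fell with Poria (background 1.2% and 1.25%), and 5 rose and 0 fell with Atractylodis (background 1.5% and 2.54%; 4 fell at an unadjusted p under 0.05 in edgeR; DESeq2 was not run on this slope). The 3 under Poria were ZNF677 (0.25, edgeR adjusted p = 0.042), ZNF121 (0.15, edgeR adjusted p = 0.039) and ZNF493 (-0.28, edgeR adjusted p = 0.043). ZNF121 was at 26.5 CPM in vehicle, 21.7 at 20 µg/mL and 26.6 at 500 µg/mL, so it was low at the lowest dose and back at the vehicle level at the highest. The 5 under Atractylodis were ZNF558, ZNF224, ZNF841, ZNF667 and ZNF580, with slopes of 0.19 to 0.24. In ZNF580, levels of 35.8 and 36.2 CPM at 100 and 500 µg/mL stood beside 27.5 CPM at 20 µg/mL. These genes too are named because of their result. ZNF302 (0.15 for Poria, edgeR adjusted p = 0.092) and ZNF574 (-0.12 for Atractylodis, edgeR adjusted p = 0.13) were not called within the treated libraries.

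No member's slope differed between the extracts by edgeR (background 1.16%), with 7 at an unadjusted p under 0.05 and 0 called by DESeq2; with the offsets 0 were called as well (edgeR, background 1.44%, 11 at an unadjusted p under 0.05). The differences ran from -0.19 to 0.13 per step. ZNF784 came nearest: its level was 4.399 ± 0.34 CPM in vehicle, 3.77, 3.55 and 3.08 with rising Poria dose, and 4.75, 4.41 and 4.39 with rising Atractylodis dose. The Poria slope was lower by 0.18 ± 0.05 (edgeR adjusted p = 0.079). ZNF569 (0.084 ± 0.03, edgeR adjusted p = 0.16), ZNF583 (-0.13 ± 0.05, edgeR adjusted p = 0.23) and ZNF234 (0.097 ± 0.04, edgeR adjusted p = 0.25) followed. A p above the threshold does not show that the extracts acted alike on these genes.

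Of the 10 members fixed by name as well studied, 3 were called (30%, against 25.3% of all genes): ZNF91 and ZNF331 higher and ZNF787, described above, lower. ZNF91 gave 19.2, 16.98 and 18.2 CPM in vehicle, 22.1, 22.3 and 24.6 with Poria and 19.6, 23.3 and 20.4 with Atractylodis (0.28 ± 0.07, edgeR adjusted p = 0.0052), with its lowest treated value just above the highest vehicle value. For ZNF93, a repressor of LINE elements, the change was 0.067 ± 0.08 (edgeR adjusted p = 0.56), and for ZNF43 0.058 ± 0.06 (edgeR adjusted p = 0.53). ZNF274, which binds the 3′ ends of zinc finger genes and brings SETDB1 to them, went from 11.7 ± 0.78 CPM in vehicle to a mean of 10.9 (-0.11 ± 0.07, edgeR adjusted p = 0.28). ZNF146 (0.065), ZNF224 (0.12), ZNF382 (0.0097) and ZNF444 (-0.024) were not called. ZNF331 was called at 0.18 ± 0.06 (edgeR adjusted p = 0.049), with overlapping groups, and it lost that call in 10 of 16 alternative settings.

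The changes also varied along the chromosome. Runs were chained over all coding ZNF-numbered genes of chromosome 19, also those below the vehicle minimum, with gaps of at most 500 kb. Members of a run can thus lie further apart: ZNF43 ends at 21852125, and ZNF730, the next member in its run, starts at 23075210. The run from ZNF175 to ZNF331 (chromosome 19, 51571298 to 53580269, 35 members) held 10 members called higher (28.6%, beside 12% of all genes) and 0 lower, with a median change of 0.11 and a median GC content of 41.2%. The run from ZNF264 to ZNF446 (57191500 to 58481230, 40 members) held 1 higher, ZNF606, and 4 lower (10%, beside 13.3%), with a median of -0.069 at 46.3% GC. With the offsets for GC and length these medians were 0.029 and -0.048, with 5 higher and 0 lower in the former and 1 and 6 in the latter. In the run from ZNF628 to ZNF71 (55476332 to 56626481, 15 members, 61.7% GC) 1 was higher, ZNF471, and 5 were lower (33.3%), and the median was -0.14. With the offsets that median was -0.081, with 1 higher and 2 lower.

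The run from ZNF101 to ZNF254 (19668796 to 24129961, 28 members), which lies beside the centromere and holds ZNF91, ZNF93 and ZNF43, had the lowest median GC content of the runs with 10 or more members, 37.4%. Its median change was only 0.043, with 2 called higher, ZNF91 and ZNF493, and 0 lower, and with the offsets it was -0.052, with 0 higher and 1 lower. Of the smaller runs, ZNF333 and ZNF507, which each form a run alone, were called higher, while ZNF473, also alone, was not called. No member was called among the 4 from ZNF554 to ZNF77. Of the run of ZNF557 and ZNF358, only ZNF358 was called, and lower. ZNF546, ZNF780B and ZNF780A (39984134 to 40090938) were all called higher, at 0.33, 0.37 and 0.38, and with the offsets as well (edgeR adjusted p = 0.042, 0.0035 and 0.0022). ZNF302, ZNF181 and ZNF30 were called higher among the 5 members between 34677639 and 34964049. ZNF574 and ZNF526 form a run of their own, and both fell. These runs differ in GC content too, and position was not tested apart from it.

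**Figure D5:**
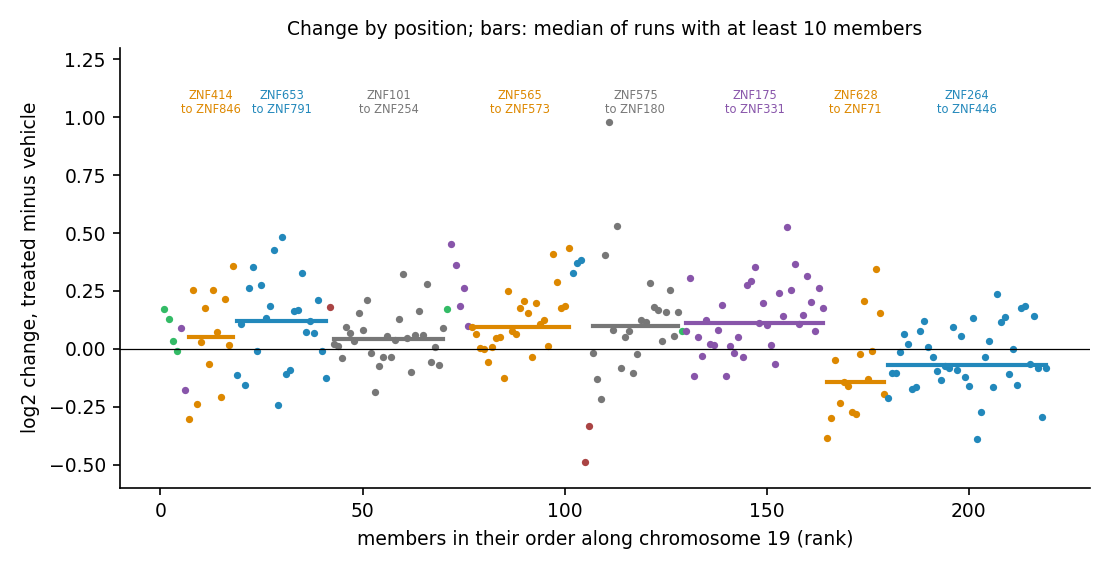
Log2 change between treated and vehicle cells (y axis) of the 219 members in their order along chromosome 19 (x axis, rank), coloured by run of neighbours, with bars at the median of each run of 10 or more members. The bars of the last 2 runs, from ZNF628 to ZNF71 and from ZNF264 to ZNF446, are the ones below 0, at -0.14 and -0.069.

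Members with a KRAB motif had 30 called higher and 5 lower of 164 (median 0.072), and those without one 7 and 11 of 55 (median 0.051). As shares these are 18.3% and 3.05% with the motif and 12.7% and 20% without it, beside 12% and 13.3% of all genes. With the offsets the counts were 15 and 10 with the motif and 5 and 6 without it. The latter hold most of the high GC members: under 50% GC, the 35 without the motif had 7 higher and 1 lower (median 0.083). Members with 16 or more fingers (n = 52) had a median change of 0.13, with 13 higher (25%) and 4 lower (7.69%), and those with up to 9 fingers (n = 56) -0.022, with 8 and 8 (14.3% each). Their median GC contents were 41.0% and 44.8%. With the offsets, the medians were 0.065 and -0.034, and the calls were 4 higher and 4 lower for 16 or more fingers and 6 and 7 for up to 9. Among the 80 members at 1 to 5 CPM in vehicle, 16 were higher (20%) and 0 lower (edgeR). Among the 72 at 10 CPM or more, 12 were higher (16.7%) and 13 lower (18.1%). All genes tested had 12% and 13.3%, and shares over all genes of these levels were not computed. The vehicle level enters both this grouping and the change.

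The start sites did not share the low GC content of the transcripts. RefSeq (GRCh38.p14) gave 300 bases around the start of 199 members, with a median GC content of 60.0% and 20 CpG dinucleotides, against 58.3% and 14 over all 27305 promoters in that table. Members called higher had a median of 59.5% (n = 32), and those called lower 64.3% (n = 16). Windows of a member that rose, ZNF302 (chr19:34677428-34677727, plus strand, 64.3% GC, 28 CpG), and of one that fell, ZNF787 (chr19:56121246-56121545, minus strand, 75% GC, 32 CpG), are printed to show this, 5′ to 3′ with CpG in capitals.
ZNF302: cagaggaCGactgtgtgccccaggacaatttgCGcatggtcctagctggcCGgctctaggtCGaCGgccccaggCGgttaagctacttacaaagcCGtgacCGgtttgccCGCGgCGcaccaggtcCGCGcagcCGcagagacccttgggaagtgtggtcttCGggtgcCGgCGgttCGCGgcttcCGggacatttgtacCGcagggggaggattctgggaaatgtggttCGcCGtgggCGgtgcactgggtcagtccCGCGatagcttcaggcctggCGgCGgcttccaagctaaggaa
ZNF787: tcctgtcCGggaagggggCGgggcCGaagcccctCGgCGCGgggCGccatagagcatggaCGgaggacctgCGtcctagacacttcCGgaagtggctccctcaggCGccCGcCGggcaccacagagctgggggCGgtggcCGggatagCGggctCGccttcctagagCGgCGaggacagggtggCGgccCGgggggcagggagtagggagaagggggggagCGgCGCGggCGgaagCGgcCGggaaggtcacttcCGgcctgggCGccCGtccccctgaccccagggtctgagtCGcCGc
Both windows are rich in CpG, although the ZNF302 transcript has 38.7% GC and that of ZNF787 has 70.3%.

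Zinc finger genes share sequence, so reads can be assigned to more than 1 of them. The counts of 123 members were whole numbers in all 9 libraries. Among these, 21 were called higher (17.1%) and 9 lower (7.32%), beside 12% and 13.3% of all genes tested. For 132 members no 100-base window of the longest transcript was found in another gene. The counts there were 22 higher (16.7%) and 10 lower (7.58%). At least 10% of windows were shared for 33 members, of which 8 were called, 3 higher (9.09%) and 5 lower (15.2%). ZNF468 and ZNF320 share 99.1% and 99.5% of their windows and are uncertain; their changes were 0.018 and -0.065. Exons of 71 members overlap a gene on the opposite strand, and the sources used here do not say whether counting used the strand. Among the 94 members with no exon overlap, 28 were called, 19 higher (20.2%) and 9 lower (9.57%).

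ZNF-numbered genes elsewhere in the genome had nearly equal counts each way. Of 227 such genes at the same minimum level, 37 were called higher (16.3%) and 36 lower (15.9%). Their median change was 0.022 and their median GC content 45%. Members had 16.9% higher and 7.31% lower, all genes tested 12% and 13.3%, and the 12188 coding genes at that level 15.1% and 18.5%. The share of the 227 genes called higher was thus close to that of the members, and their share called lower was above it. With the offsets these genes had 10.6% higher and 14.5% lower, with a median of 0.0040. Members then had 9.13% and 7.31%, with a median of 0.0027. The 651 other coding genes of chromosome 19 had 18 higher (2.76%) and 286 lower (43.9%), with a median of -0.13 at 60.4% GC. With the offsets they had 5.99% higher and 27.6% lower, with a median of -0.054. Differences between these sets and the members were not tested, since genes are not replicates.

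The partners of KRAB proteins changed in both directions. Of 28 listed corepressor and silencing genes, 5 were called higher (17.9%) and 6 lower (21.4%), beside 12% and 13.3% of all genes, with a median of 0.032. With the offsets 2 were higher and 4 lower, and the median was -0.025. TRIM28, the KRAB corepressor, gave 350, 352 and 351 CPM in vehicle, 296, 292 and 298 with rising Poria dose, and 308, 287 and 267 with rising Atractylodis dose. Every treated library was below every vehicle library (log2 change -0.27 ± 0.04, edgeR adjusted p = 0.00014, and 0.0018 with the offsets). SETDB1 was at 25.9 ± 1.09 CPM in vehicle and a mean of 25.7 in treated cells (-0.010 ± 0.05, edgeR adjusted p = 0.91). DAXX, a histone chaperone, fell by 0.26 (edgeR adjusted p = 0.00011). ATRX, the remodeller that acts with DAXX, rose by 0.18 (edgeR adjusted p = 0.0026), but not with the offsets (edgeR adjusted p = 0.23).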

How the data were processed

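RNA-seq libraries of SW1783 cells (3 vehicle, 6 treated) were made with a directional kit from RNA of integrity above 7 and sequenced as paired reads of 100 bases, per the labels' protocols. Per the submitters' processing notes, FastQC 0.11.9, Trim Galore 0.6.5, STAR 2.7.3a and RSEM 1.3.3 were used with hg38. For the annotation release and the strand setting: not given in the sources used here. RSEM expected counts per gene were deposited by the authors, and they were rounded; 270 columns of other samples were not used. The labels give the vehicle as 0.1% DMSO and the series design as 2%, which was not settled.

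Symbols, positions and transcripts came from GENCODE 29 (57055 of 60675 genes matched). GC content is that of the longest coding transcript, not of all exons as planned, and finger and KRAB motifs were counted in the translation of the longest coding sequence. Tests used edgeR 4.0.16 in R 4.3.3 (TMM, filterByExpr with a count minimum of 10 and a total of 15, robust quasi-likelihood, Benjamini-Hochberg over 18356 genes, threshold 0.05). Treated against vehicle left 7 residual degrees of freedom, and the fit with 1 slope per extract left 6. The biological coefficient of variation was 5.49% and 4.97%. SE is the log2 change over the square root of F. Shifts used log2 CPM with a prior count of 2. GC and length offsets came from natural splines (5 degrees of freedom) per library. With library totals of 40269665 to 48905536, a member had a median of 282 counts per vehicle library (quartiles 171.5 and 477.5). At such counts counting error is not small and adds to the spread of most members. Vehicle pairs differed by a chi-square per degree of freedom of 2.46 to 3.44, more than sampling noise gives. On simulated data the test of treated against vehicle found 49.5% of changes of 0.25 and 72.3% of 0.5 (log2), over 17889 and 17853 genes. The Poria slope test found 8.2% of slopes of 0.083 and 64.1% of 0.167 per step, over 17878 and 17851 genes. The simulation used the same change in every treated library or an even slope, and a single dispersion for all genes. Changed genes were drawn from all tested genes, so these rates are not those for the members.

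DESeq2 1.42.0, other scalings and filters, offsets, left-out libraries and other slopes were alternatives. Members, lists and tests were chosen with earlier results of these data known. Named are the 10 largest called rises and falls, the 5 highest and 5 lowest levels per length, the 4 smallest p per slope and for their difference, genes beside the minimum of 1 CPM, the most and fewest fingers, 11 fixed genes, of which ZNF536 was below the minimum, and 5 corepressor genes, of which 1 is counted but not reported here; not all of them are described.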

Additional observations from a re-analysis of the deposited data

Results flagged for a closer look

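In 4 of 43 named members, 1 of the 6 treated libraries stood apart from the other 5 by Dixon's test at the 95% level, which chance gives in about 1 group in 20; over all 219 members there were 18. ZNF844 was highest with 100 µg/mL of Poria (7.87 CPM). ZNF526 was highest (14.8 CPM) and ZNF580 lowest (27.5 CPM) with 20 µg/mL of Atractylodis, and ZNF444 was highest with 500 µg/mL of Poria (16.02 CPM). The median shift of the members was lowest in the Atractylodis library at 20 µg/mL (-0.0027), apart from the other 5 treated libraries. In 5 of the 18 members it was that library that was the lowest.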

How the results depend on the processing

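No paired analysis was possible because vehicle and the treated groups share only replicate number 2. Library totals alone in place of TMM gave 66 members higher for treated against vehicle, 67 rising and 7 falling for Poria, 44 and 4 for Atractylodis, and a median change of 0.13. Over all genes that scaling gave 21.7% higher, 17.3% rising and 6.04% falling for Poria, and 14.6% and 5.86% for Atractylodis. For treated against vehicle, DESeq2 gave 30 members higher and 16 lower (13.7% and 7.31%, against 13.6% and 17.7% of all genes). A filter at a mean of at least 1 CPM gave 42 and 17 (19.2% and 7.76%, against 16.4% and 18.1%). A fit with each extract and dose as its own group took its spread from the 3 vehicle libraries alone, and its counts are not reported here. GC and length offsets gave 20 higher, 17 and 6 for Poria, 13 and 4 for Atractylodis, and a median of 0.0027. Over all genes the offsets gave 9.77% higher, 6.81% and 8.35% for Poria, and 6.25% and 8.4% for Atractylodis. The slope within the treated libraries gave 2 and 1 for Poria (background 1.2% and 1.25%) and 5 and 0 for Atractylodis (background 1.5% and 2.54%). Adding the offsets to it was an alternative chosen after seeing the data. That gave 5 and 1 for Poria (background 1.76% and 1.72%) and 3 and 0 for Atractylodis (background 1.21% and 1.44%). With dose in place of dose step, 0 and 0 were called for each extract by edgeR. Few genes at large were called on that scale: 0.419% rose and 0.261% fell for Poria, and 0.223% and 0.142% for Atractylodis. An unadjusted edgeR p under 0.05 was found for 40 members with Poria and 26 with Atractylodis. DESeq2 was not run on that scale. Leaving out 1 library at a time gave 21 to 48 higher and 12 to 18 lower for treated against vehicle, 22 to 38 and 7 to 16 for Poria, and 6 to 35 and 3 to 11 for Atractylodis. Over all genes these fits gave 7.06% to 13.9% higher and 9.28% to 15.5% lower for treated against vehicle. For Poria they gave 5.85% to 10.3% and 8.07% to 13%, and for Atractylodis 2.21% to 10.8% and 3.46% to 12.8%. The cause of these moves was not tested. None of the 27 named members called for treated against vehicle changed direction under the 16 alternatives run for it. Uncalled estimates of 6 named members did, none called on either side: with the offsets ZNF146 was at -0.0045, ZNF93 at -0.010, ZNF43 at -0.050, ZNF382 at -0.076, ZNF444 at 0.083 and ZNF575 at 0.071. Of the 27, 18 were called with the offsets, 25 with DESeq2, 24 with library totals alone and 20 to 27 with 1 library left out. No member was called for the difference between slopes under any of the alternatives run. Each dose had 1 library, which leaves no spread to set a single dose against.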
